A study of Homo sapiens with 12 samples.

Results

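The transcripts examined here are those of 7 ligands of the EGF family, which activate the ERBB receptors: HBEGF, TGFA, AREG, EREG, EPGN, BTC and NRG1. They were found by gene symbol, and all 7 are among the 60603 genes of the count table. Of the 17775 genes with enough counts to be tested, 6 were members. EPGN had too few counts. The RNA came from T24, an established human bladder carcinoma line with an activated HRAS gene, with 3 libraries in each group. The 4 groups are WT cells without treatment, WT cells given 5-Ad-IAA, cells of the genotype NS1 without treatment, and NS1 cells given 5-Ad-IAA. The compound 5-Ad-IAA is derived from the plant hormone auxin and is the inducer of the system studied, AlissAID, in which auxin triggers the degradation of an endogenous protein that carries no tag. A synthetic binding protein for RAS is known by the same name, NS1. The labels do not spell out NS1, what WT cells carry of the system, whether the NS1 line is 1 clone, or the dose and time of 5-Ad-IAA. They also do not say that replicates came from separate cultures, so each p-value reflects only the spread among these libraries, which may be technical.

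EGF family ligands are made as membrane-anchored precursors that proteases of the ADAM family cut from the cell surface. The released ligand binds a receptor on the same or a nearby cell, and the paired receptors signal through adaptors to RAS, RAF, MEK and ERK. TGFA, AREG, EPGN and EGF itself bind EGFR, whereas HBEGF, EREG and BTC bind EGFR and ERBB4, and the neuregulins bind ERBB3 and ERBB4. Transcription of several of these ligands is in turn raised by RAS and ERK signalling, so that transformed epithelial cells can stimulate themselves. In urothelium, EGFR ligands take part in wound closure.

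EPGN, EREG, AREG and BTC lie next to each other on chromosome 4 at 4q13.3, whereas TGFA is on chromosome 2 and HBEGF on chromosome 5. In GENCODE 29 (GRCh38, the build also named in the submitters' processing notes as hg38), EPGN spans chr4:74308473-74315307, EREG chr4:74365143-74388751, AREG chr4:74445134-74455009 and BTC chr4:74744759-74794686. EREG and AREG are read in the same direction and lie 56.4 kb apart. HBEGF spans chr5:140332843-140346631 and TGFA chr2:70447280-70554193, both on the minus strand. Gene versions in the count table were newer than in GENCODE 29 except for EPGN, so the ends of the other genes may differ slightly.

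The 250 bases before the start of the 4 ligands whose levels differed between the groups are shown here, because AREG and EREG each hold a TATA box and an ETS motif that the other 2 windows lack. In the comparison of NS1 with WT cells, both given 5-Ad-IAA, AREG, EREG and TGFA were called as lower in NS1 cells. HBEGF, called as higher there, was added for contrast after its values were seen. The sequences are RefSeq promoters (GRCh38.p14) at chr4:74444886-74445135 (plus strand) for AREG, chr4:74364895-74365144 (plus strand) for EREG, chr2:70553827-70554076 (minus strand) for TGFA and chr5:140346604-140346853 (minus strand) for HBEGF, each read 5′ to 3′ toward its start. Capitals mark matches on either strand to TGACGTCA (the CRE bound by CREB and ATF factors), TGANTCA (AP-1), GGAAGT and CCGGAA (ETS factors), GGGCGG (the zinc finger factor SP1) and finally TATAAA (the factor TBP).
AREG: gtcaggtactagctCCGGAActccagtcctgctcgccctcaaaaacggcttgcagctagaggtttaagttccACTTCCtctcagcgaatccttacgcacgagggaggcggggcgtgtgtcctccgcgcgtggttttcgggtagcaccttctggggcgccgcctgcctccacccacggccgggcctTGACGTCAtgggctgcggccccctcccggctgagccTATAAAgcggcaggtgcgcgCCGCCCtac
EREG: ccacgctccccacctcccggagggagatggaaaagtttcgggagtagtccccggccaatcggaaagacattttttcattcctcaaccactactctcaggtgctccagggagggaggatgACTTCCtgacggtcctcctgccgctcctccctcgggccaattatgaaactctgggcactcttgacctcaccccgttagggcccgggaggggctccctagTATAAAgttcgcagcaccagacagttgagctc
TGFA: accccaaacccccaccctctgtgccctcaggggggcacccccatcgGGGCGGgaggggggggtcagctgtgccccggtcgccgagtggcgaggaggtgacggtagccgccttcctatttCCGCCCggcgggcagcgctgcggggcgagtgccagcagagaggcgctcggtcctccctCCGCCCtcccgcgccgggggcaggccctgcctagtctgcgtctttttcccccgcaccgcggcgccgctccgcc
HBEGF: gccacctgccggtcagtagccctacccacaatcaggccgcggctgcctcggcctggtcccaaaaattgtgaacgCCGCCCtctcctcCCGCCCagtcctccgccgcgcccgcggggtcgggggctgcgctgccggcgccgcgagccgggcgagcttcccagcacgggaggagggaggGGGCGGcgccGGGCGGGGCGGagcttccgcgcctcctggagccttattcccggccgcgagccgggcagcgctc
AREG and EREG each hold TATAAA, 29 to 24 bases and 32 to 27 bases before the start, as does EPGN, which is not shown. AREG and EREG also each hold GGAAGT, 178 to 173 and 131 to 126 bases before the start. Of 35116 RefSeq promoter windows of the same length, 10.7% hold TATAAA and 19.5% hold GGAAGT. AREG alone among the ligands holds TGACGTCA, 65 to 58 bases before its start, a motif in 1.65% of windows. It also holds CCGGAA, as 14.5% of windows do, and 1 GGGCGG. HBEGF has 5 matches to GGGCGG, a pair of which share 1 base, and this TGFA window has 3, where 42.6% of windows have at least 1. A further TGFA start in the table has CCGGAA alone. TGANTCA, found in 6.57% of windows, has no match in the windows of these 4 ligands, EPGN or BTC. The table has no entry for NRG1. These matches describe letters in a window and not bound sites.

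Per kb of exon, TGFA, EREG and HBEGF were the 3 most abundant ligand transcripts in all groups. Levels are given as normalised CPM, counts scaled to library totals adjusted by TMM (a correction for differences in RNA composition), as mean ± SD (n = 3). Each set of 4 values follows the order WT without inducer, WT with 5-Ad-IAA, NS1 without inducer, NS1 with 5-Ad-IAA. TGFA, a ligand of EGFR alone, had 57.8 ± 11.1, 57.5 ± 9.04, 56.5 ± 4.28 and 41.4 ± 2.88 CPM. EREG, which binds EGFR and ERBB4, had 56.2 ± 17.9, 57.9 ± 11.2, 43.9 ± 4.38 and 35.2 ± 4.97 CPM. HBEGF, the ligand that is also the receptor for diphtheria toxin, had 16.6 ± 5.05, 18.2 ± 4.43, 48.2 ± 4.09 and 35.6 ± 4.81 CPM. The treated NS1 group was thus the lowest for TGFA and EREG, and both NS1 groups lay above both WT groups for HBEGF.

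AREG, BTC and NRG1 were less abundant. AREG, an EGFR ligand named for its mixed effects on growth, had 3.07 ± 1.19, 2.78 ± 1.30, 1.59 ± 0.604 and 0.541 ± 0.244 CPM in the same order of groups. These values rest on few reads, between 5 and 49 per library. NRG1, a neuregulin at chr8:31639386-32767959 on the plus strand, had 12.9 ± 2.50, 13.1 ± 5.56, 10.5 ± 1.55 and 10.7 ± 3.95 CPM. BTC had 1.23 ± 0.649, 1.12 ± 0.279, 0.917 ± 0.292 and 1.31 ± 0.154 CPM, from 8 to 42 reads per library. EPGN, a ligand of low affinity, had 4 reads in all 12 libraries together and at most 2 in any, which is at the detection floor of 3 counts, or 0.141 to 0.290 CPM depending on the library. The floor allows for counting error alone, as no molecular identifiers are described.

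**Figure D1:**
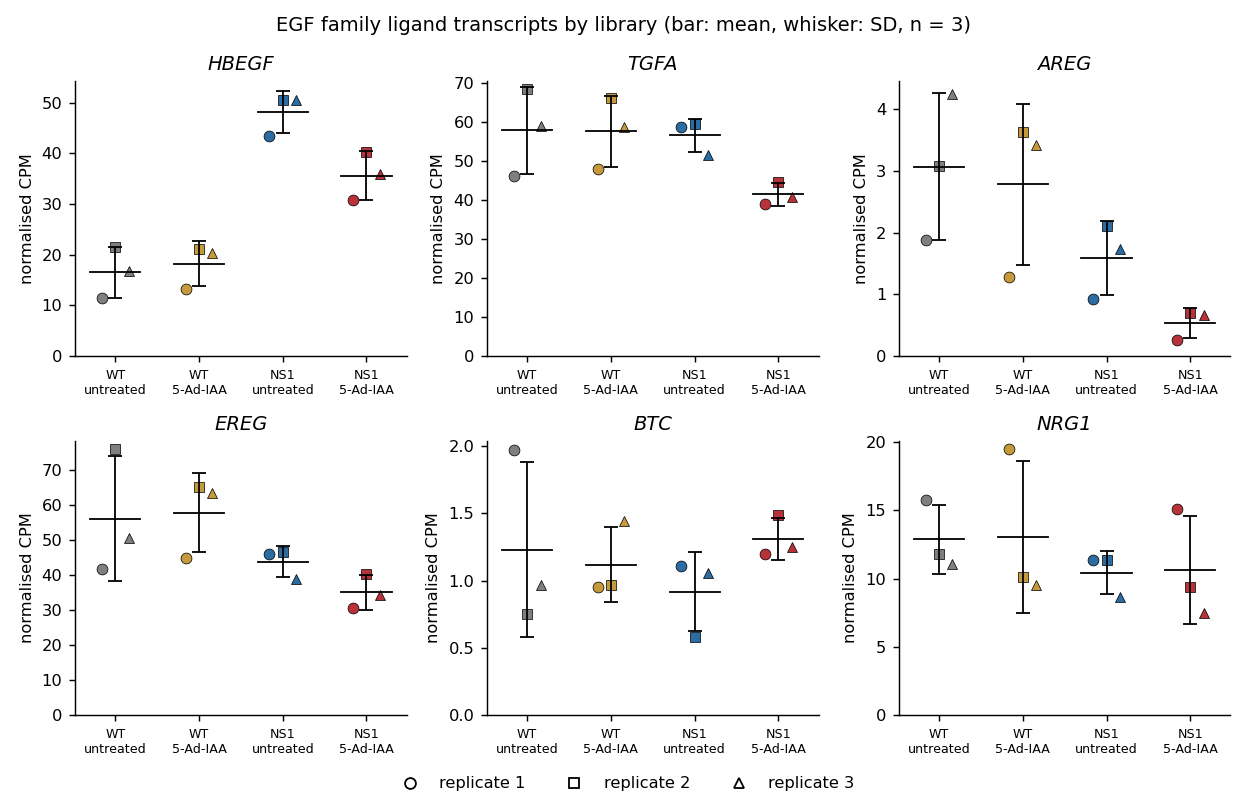
Normalised CPM (linear axis from 0) of the 6 tested ligands in the 12 libraries, by group; symbols give the replicate number, the bar the mean and the whisker the SD of 3 libraries. HBEGF lies between 11.4 and 21.5 CPM in the 6 WT libraries and between 30.7 and 50.6 in the 6 NS1 libraries, and AREG is lowest in treated NS1 cells.

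Of the other 4 ligands of the family, NRG2 had enough counts to be tested and the rest were near or at 0. NRG2, a neuregulin, had 11.8 ± 1.96, 12.2 ± 2.52, 13.2 ± 0.487 and 11.6 ± 0.657 CPM in that order. None of its comparisons was called, with adjusted p from 0.555 to 1. EGF had at most 8 reads in a library and NRG4 at most 10, and NRG4 shares exon bases with FBXO22 on the opposite strand. NRG3 had 0 reads in every library, which allows up to 3 reads in each.

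Divided by exon length, so that genes can be compared, the summed level of the 7 ligands was 30.4 ± 6.88, 31.0 ± 5.50, 37.2 ± 1.84 and 28.0 ± 2.97 CPM per kb (SD, n = 3) in the 4 groups. In untreated WT cells TGFA made up 38.5% ± 1.46 of this sum, EREG 32.0% ± 3.28, HBEGF 17.8% ± 1.62, AREG 6.12% ± 2.10, NRG1 3.97% ± 1.67 and BTC 1.6% ± 1.19. The levels per kb of TGFA and EREG, neighbours in this order, overlapped between their libraries. In untreated NS1 cells HBEGF made up 42.9% ± 3.33, TGFA 30.6% ± 1.90, EREG 20.6% ± 1.71 and AREG 2.57% ± 0.899. After 5-Ad-IAA the shares of HBEGF and TGFA in NS1 cells were 42.0% ± 1.59 and 29.8% ± 1.10, whereas AREG had 1.15% ± 0.457. The exon length used joins all annotated transcripts of a gene, which lowers the level per kb of a gene with many transcripts such as NRG1.

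**Figure D2:**
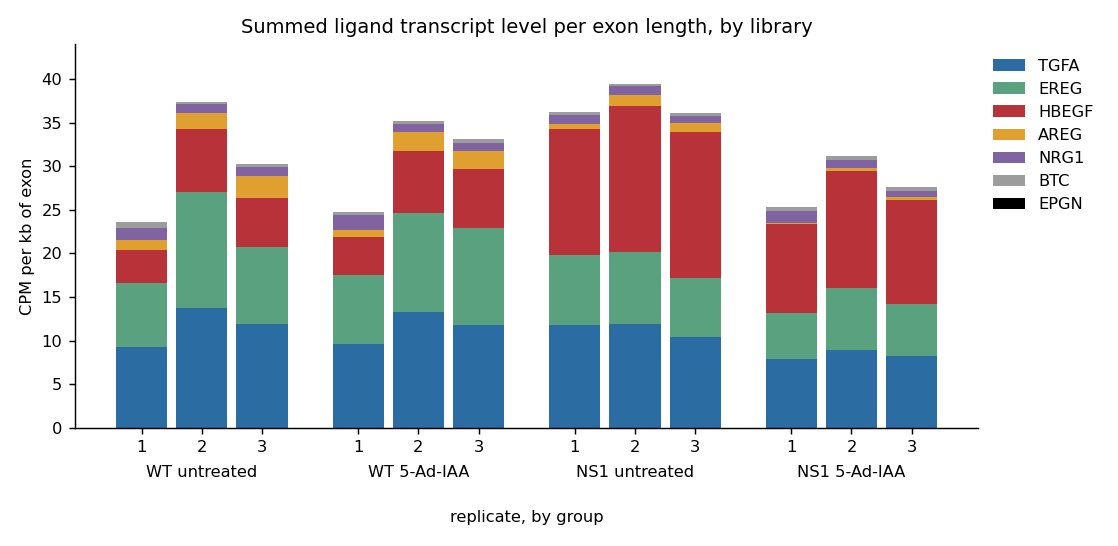
Normalised CPM per kb of exon of the 7 ligands, stacked, in each of the 12 libraries. HBEGF (red) takes 17.8% of the sum on average in untreated WT libraries and 42.9% in untreated NS1 libraries, where the whole bars average 30.4 and 37.2 CPM per kb.

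The inducer effect in NS1 cells, treated against untreated libraries, addresses whether the ligands change when the degradation system is engaged. AREG had 0.926, 2.11 and 1.73 CPM in untreated replicates 1, 2 and 3 and 0.260, 0.698 and 0.664 CPM in the treated ones. TGFA had 58.6, 59.3 and 51.6 CPM untreated and 38.9, 44.5 and 40.7 CPM treated. The groups did not overlap for either gene. HBEGF had 43.5, 50.6 and 50.5 CPM untreated and 30.7, 40.3 and 35.9 CPM treated, also without overlap. EREG had 46.1, 46.7 and 38.9 CPM untreated and 30.7, 40.5 and 34.3 CPM treated, and the second treated library lay above the third untreated one.

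In the edgeR fit without regard to replicate numbers, 0 of the 6 ligands were called at an adjusted p under 0.05, where 6.15% of all genes were called. At an unadjusted p under 0.05 there were 2, TGFA and AREG. The log2 fold changes were -1.61 (SE 0.57, adjusted p 0.115) for AREG, -0.45 (SE 0.15, adjusted p 0.0945) for TGFA, -0.44 (SE 0.21, adjusted p 0.265) for HBEGF and -0.33 (SE 0.21, adjusted p 0.419) for EREG. BTC had 0.50 (SE 0.39, adjusted p 0.531) and NRG1 0.04 (SE 0.30, adjusted p 0.965). The median over the 6 ligands was -0.38, against 0.01 over all genes. The groups did not overlap for 4 of the 6 ligands (AREG, TGFA, HBEGF and BTC), against 27.2% of all genes.

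The labels state no pairing. Replicate numbers were taken to pair the treated and untreated libraries of a line, from correlations in these data that rest mainly on replicate 1. With that pairing 4 ligands were called as lower. In every one of the 3 same-numbered pairs AREG, TGFA, HBEGF and EREG were lower after 5-Ad-IAA. For AREG, TGFA and HBEGF, whose groups did not overlap, any pairing would give this, so it adds nothing to the lack of overlap. The log2 ratios in pairs 1, 2 and 3 were -1.83, -1.59 and -1.38 for AREG. TGFA had -0.59, -0.41 and -0.34, HBEGF -0.50, -0.33 and -0.49, and EREG -0.59, -0.21 and -0.18. With a replicate block within each line, edgeR called these 4 of 6 ligands, all lower, where 25.9% of all genes were called. AREG fell by 1.56 on the log2 scale (SE 0.33, adjusted p 0.00292), TGFA by 0.45 (SE 0.08, adjusted p 0.000471), HBEGF by 0.44 (SE 0.08, adjusted p 0.000904) and EREG by 0.33 (SE 0.11, adjusted p 0.0329). With 1 block per replicate number shared by the lines, AREG, TGFA and HBEGF were called (3 of 6, where 13.6% of all genes were) and EREG was not.

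Of these calls, that of AREG alone held when replicate 1 was left out. In the fit with a block within each line but without replicate 1, AREG had -1.48 (adjusted p 0.0363), TGFA -0.38 (0.0513), HBEGF -0.41 (0.0546) and EREG -0.19 (0.456). Calls over all genes went from 4596 to 1824 in that fit. Without replicate 2 and without replicate 3 the same 4 ligands were called, where 3167 and 4703 of all 17775 genes were called. In bulk libraries such as these, fewer cells and less RNA per cell cannot be told apart.

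**Figure D3:**
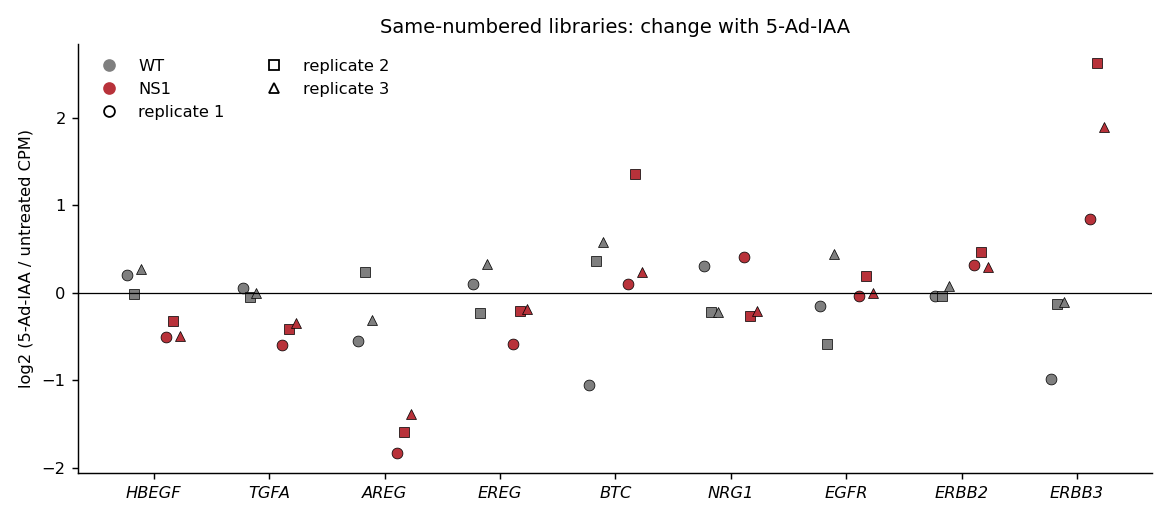
Change with 5-Ad-IAA within same-numbered libraries, as log2 of treated over untreated CPM, for 6 ligands and 3 receptors; grey is WT, red is NS1 and the symbol is the replicate number. In NS1 cells all 3 pairs are below 0 for HBEGF, TGFA, AREG and EREG and above 0 for BTC, ERBB2 and ERBB3. Of these genes EREG alone had overlapping groups, so for the others any pairing would give the same direction.

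The same comparison was made in WT cells. AREG had 1.87, 3.08 and 4.25 CPM in untreated replicates 1, 2 and 3 and 1.28, 3.63 and 3.42 CPM in the treated ones. HBEGF had 11.4, 21.5 and 16.8 CPM untreated and 13.2, 21.2 and 20.4 CPM treated. All 6 ligands overlapped between the groups, where 3.41% of all genes did not. In edgeR 0 of 6 ligands were called, as were 0% of all genes, with adjusted p of 1 for each ligand and 0 ligands at an unadjusted p under 0.05, and the replicate blocks and DESeq2 also called 0. The log2 fold changes were -0.01 for TGFA (95% interval -0.33 to 0.31), 0.14 for HBEGF (-0.34 to 0.62), 0.04 for EREG (-0.40 to 0.48) and -0.14 for AREG (-1.07 to 0.78). For NRG1 the value was 0.03 (-0.60 to 0.65) and for BTC -0.24 (-1.04 to 0.56). The interval for AREG was the widest of the 6, and its SE was 0.43 without pairing and 0.20 with the block within each line.

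The interaction term of the model compares the 5-Ad-IAA effect between genotypes. Without pairing, 0 of 6 ligands were called, against 0.0225% of all genes, and 0 had an unadjusted p under 0.05. DESeq2 also called 0, with no adjusted p for AREG. With 1 block per replicate number, 0 ligands were called, against 3.57% of all genes. The interaction was -1.47 log2 (SE 0.71, adjusted p 0.432) for AREG, -0.58 (SE 0.31, adjusted p 0.49) for HBEGF, -0.45 (SE 0.21, adjusted p 0.416) for TGFA and -0.37 (SE 0.29, adjusted p 0.705) for EREG. With the block within each line 3 of 6 ligands were called, against 14% of all genes. AREG had -1.39 (SE 0.39, adjusted p 0.0291), HBEGF -0.59 (SE 0.12, adjusted p 0.00505) and TGFA -0.45 (SE 0.11, adjusted p 0.0102). Leaving out replicate 1 ended all 3 calls, with -1.45 for AREG (adjusted p 0.15), -0.53 for HBEGF (0.173) and -0.35 for TGFA (0.302), while calls over all genes went from 2495 to 422. Leaving out replicate 2 ended that of AREG (-1.13, adjusted p 0.225), and EREG was then called (-0.61, adjusted p 0.0279). In that fit 1430 of all 17775 genes were called.

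Before any inducer, HBEGF was higher in NS1 than in WT cells. Untreated WT libraries had 11.4, 21.5 and 16.8 CPM and untreated NS1 libraries 43.5, 50.6 and 50.5 CPM, so every NS1 library was above every WT library. The difference was 2.93-fold (log2 1.55, SE 0.22, edgeR adjusted p 0.000945). HBEGF was the 1 ligand called of 6, where 12.5% of all genes were called, and the 1 ligand without overlap of the groups, where 31% of all genes had none. It kept its call when any 1 of the 6 libraries was left out, with log2 values from 1.33 to 1.79. With replicate 3 left out of all groups its adjusted p was 0.0762 at a log2 fold change of 1.53. Calls over all genes went from 2222 to 186 in that fit.

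The other ligands were not called between the untreated lines. AREG had a log2 difference of -0.93 (SE 0.46, adjusted p 0.207), EREG -0.35 (SE 0.21, adjusted p 0.291), BTC -0.49 (SE 0.38, adjusted p 0.439), NRG1 -0.31 (SE 0.29, adjusted p 0.546) and TGFA -0.03 (SE 0.15, adjusted p 0.927). For TGFA the 95% interval ran from -0.35 to 0.29. Without replicate 1, AREG and EREG were called as lower in NS1 cells, with adjusted p of 0.0333 and 0.0386. Calls over all 17775 genes went from 2222 to 3441 in that fit.

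With 5-Ad-IAA in both lines, 4 of 6 ligands differed, and the family split by direction. This comparison shares its treated NS1 libraries with the inducer effect in NS1 cells. HBEGF was 1.96-fold higher in NS1 cells (log2 0.97, SE 0.22, edgeR adjusted p 0.00516). AREG was 5.25-fold lower (log2 -2.39, SE 0.54, adjusted p 0.00509), EREG 1.65-fold lower (log2 -0.72, SE 0.21, adjusted p 0.0197) and TGFA 1.39-fold lower (log2 -0.47, SE 0.15, adjusted p 0.0303). For these 4 the groups did not overlap. The background was high in this comparison, with 28.2% of all genes called and 43.4% without overlap of the groups.

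EREG had 45.0, 65.1 and 63.7 CPM in treated WT replicates 1, 2 and 3, against 30.7, 40.5 and 34.3 CPM in treated NS1 cells. TGFA had 48.0, 65.9 and 58.6 CPM against 38.9, 44.5 and 40.7 CPM. Replicate 1 of the WT cells came closest to the NS1 libraries for both genes. BTC had a log2 difference of 0.24 (SE 0.38, adjusted p 0.667) and NRG1 of -0.29 (SE 0.29, adjusted p 0.486). With 1 of the 6 libraries left out at a time, HBEGF and AREG kept their calls 6 of 6 times, and EREG and TGFA 2 of 6 times. Without replicate 2, HBEGF was the 1 ligand called, and without replicate 3 none was, with adjusted p from 0.0703 for AREG to 0.23 for TGFA. Calls over all genes went from 5007 to 1642 without replicate 2 and to 2130 without replicate 3, and the log2 differences without replicate 3 were 1.06 for HBEGF, -2.41 for AREG, -0.62 for EREG and -0.44 for TGFA. Without replicate 2 those of the 3 ligands not called were -2.36 for AREG, -0.73 for EREG and -0.41 for TGFA. Without replicate 1 the 4 ligands were called, where 5976 of all 17775 genes were called.

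**Figure D4:**
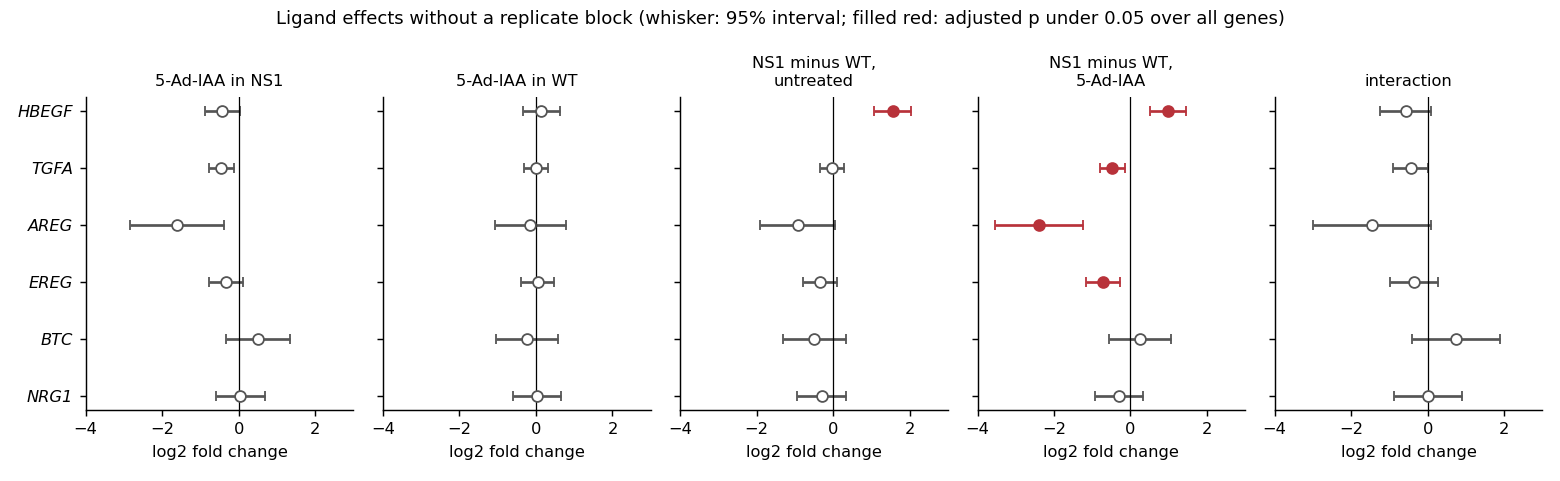
Log2 fold changes of the 6 tested ligands in the 5 comparisons from the edgeR fit without a replicate block; whiskers are 95% intervals and filled red points have an adjusted p under 0.05 over all genes. HBEGF is the 1 filled point between the untreated lines, and HBEGF, TGFA, AREG and EREG are filled between the lines when both had 5-Ad-IAA.

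The libraries of replicate 1 stood apart within the groups, in opposite directions for different ligands. HBEGF and AREG were lowest in replicate 1 in 4 of 4 groups, and TGFA and EREG in 3 of 4. NRG1 was highest in replicate 1 in 4 of 4 groups, with 11.4 to 19.5 CPM there and 7.47 to 11.8 CPM in replicates 2 and 3. In untreated NS1 cells the margin for NRG1 was slight, with 11.4 CPM in replicate 1 and 11.3 in replicate 2. BTC was lowest in 2 groups and highest in 2. Replicate 1 was also the most deeply sequenced in each group, and the part of depth in these values was not tested.

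Among the receptors, EGFR and ERBB2 were abundant in all groups, while ERBB3 was low and ERBB4 near the floor. EGFR, the receptor for most of the ligands here, had 147 ± 42.3, 134 ± 17.9, 151 ± 16.5 and 156 ± 20.5 CPM in the order of groups used above. It was called in none of the 5 comparisons, with adjusted p from 0.425 to 1. With the block within each line and without replicate 3 it was called for 5-Ad-IAA in WT cells (-0.36, adjusted p 0.0116) and for the interaction (0.44, adjusted p 0.00507). In that fit 482 of all 17775 genes were called in WT cells and 3776 for the interaction. With this block and all replicates the calls were 0 and 2495. ERBB4 had at most 7 reads in a library.

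In WT cells given 5-Ad-IAA 0 of 3 tested receptors were called, as were 0% of all genes, and 0 receptors had an unadjusted p under 0.05. With 5-Ad-IAA in NS1 cells 2 of the 3 were called as higher, ERBB2 and ERBB3, where 6.15% of all genes were called. ERBB2, the partner receptor with no known ligand, went from 73.3, 74.7 and 80.6 CPM to 91.3, 104 and 98.6 CPM (log2 fold change 0.36, SE 0.10, adjusted p 0.0458). ERBB3, which binds neuregulins and has little kinase activity, went from 0.494, 0.654 and 0.673 CPM to 0.884, 4.02 and 2.49 CPM (log2 fold change 1.97, SE 0.48, adjusted p 0.0299). These ERBB3 values rest on few reads, 8, 9 and 7 untreated and 17, 46 and 30 treated. Neither receptor overlapped between the groups, and the first treated ERBB3 library was well below the other two. Each of these calls held in 1 of the 6 fits that left out a single library and in both fits with a replicate block. Neither held in a fit of the NS1 libraries alone. Over the alternatives that kept all replicates, ERBB2 was called in 5 of 8 and ERBB3 in 6 of 7. With the block within each line the interaction was 0.36 (SE 0.10, adjusted p 0.0245) for ERBB2 and 2.41 (SE 0.49, adjusted p 0.00444) for ERBB3, and without pairing adjusted p was 0.286 and 0.146. Between the untreated lines none of the 3 tested receptors was called, where 12.5% of all genes were. With 5-Ad-IAA in both lines ERBB3 was the 1 receptor called, where 28.2% of all genes were. It was higher in NS1 cells (log2 1.59, SE 0.46, adjusted p 0.0191), and the call held with 4 of the 6 single libraries left out. The groups overlapped for ERBB3 there. Exons of ERBB2 overlap those of MIEN1 and PGAP3 on the opposite strand, and exons of EGFR overlap EGFR-AS1. Exons of ERBB3 share 31 bases with AC034102.2 on the same strand. Whether strand was used in counting is not given in the sources used here.

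The genes that cut, mature or carry the ligand precursors were tested as a list of 16, all with enough counts. ADAM17 and ADAM10, the main proteases that release these ligands, were called in no comparison, and ADAM17 had 46.2 ± 5.04, 43.6 ± 5.45, 41.9 ± 1.72 and 49.1 ± 0.438 CPM in untreated WT, treated WT, untreated NS1 and treated NS1 cells. With 5-Ad-IAA 0 of 16 were called by edgeR in either line, with 1 at an unadjusted p under 0.05 in NS1 cells and 0 in WT cells. Over all genes 6.15% were called in NS1 and 0% in WT cells. With the block within each line, 2 were called as higher and 1 as lower in NS1 cells, where 25.9% of all genes were called. DESeq2 called 1. Between the untreated lines 2 were higher and 3 lower in NS1 cells, where 12.5% of all genes were called, with a list median of -0.12 log2 against a median of 0 over all genes to 2 decimals. ADAM12, a protease reported to cut HBEGF, was higher by 1.40 log2 (SE 0.23, adjusted p 0.00241) and ADAM19 by 0.79 (SE 0.15, adjusted p 0.0041). TIMP3, an inhibitor of ADAM17, was lower at -1.6 (SE 0.32, adjusted p 0.00661) and CD9, a tetraspanin that associates with the HBEGF precursor, at -1.80 (SE 0.51, adjusted p 0.0355). The CD9 call held in 1 of the 6 fits that left out a single library, and the other 3 in all 6. With 5-Ad-IAA in both lines 1 was higher and 3 were lower, or 4 of 16, where 28.2% of all genes were called. ADAM12 had 1.46 (SE 0.23, adjusted p 0.000559), TIMP3 -0.98 (SE 0.31, adjusted p 0.031), ADAM8 -1.71 (SE 0.60, adjusted p 0.0491) and RHBDF2, a carrier of ADAM17, -0.48 (SE 0.15, adjusted p 0.0301). There TIMP3 kept its call in 3, ADAM8 in 2 and RHBDF2 in 1 of the 6 fits, and ADAM12 in all 6.

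Of 10 receptor adaptors and signalling genes, 0 were called by edgeR with 5-Ad-IAA in either line, with 2 at an unadjusted p under 0.05 in NS1 cells and 0 in WT cells. Over all genes 6.15% were called in NS1 and 0% in WT cells. The list median was 0.09 log2 in NS1 cells. There the block within each line gave 2 calls, both higher, where 25.9% of all genes were called. DESeq2 gave 2. Between the untreated lines PLCG1, a phospholipase recruited to the receptors, was higher in NS1 cells by 0.39 (SE 0.10, adjusted p 0.0214) and STAT3 lower at -0.40 (SE 0.09, adjusted p 0.0136). Over all genes 12.5% were called there. With 5-Ad-IAA in both lines 4 of 10 were higher and 1 lower, where 28.2% of all genes were called, with a list median of 0.31. The RAS exchange factors SOS2 and SOS1 had 0.74 (SE 0.15, adjusted p 0.00303) and 0.51 (SE 0.15, adjusted p 0.0212). The adaptor GRB2, through which they bind the receptors, had -0.44 (SE 0.10, adjusted p 0.0051), and PLCG1 had 0.44 (SE 0.10, adjusted p 0.00561). With a single library left out, the call of PLCG1 between the untreated lines held in 1 and that of SOS1 in 3 of 6 fits.

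Of 14 attenuators of the receptors, 13 could be tested. CBLB was the 1 called with 5-Ad-IAA in NS1 cells, where 6.15% of all genes were called. CBLB, a ubiquitin ligase that marks activated receptors for degradation, had 6.85 ± 1.21 CPM in untreated WT, 6.14 ± 1.39 in treated WT, 6.83 ± 1.88 in untreated NS1 and 18.8 ± 2.81 in treated NS1 cells, a rise of 1.45 log2 in NS1 cells (SE 0.22, adjusted p 0.00378) that held whichever of the 6 libraries was left out. With the block within each line 2 attenuators were called as higher and 1 as lower, where 25.9% of all genes were called. The interaction for CBLB was 1.64 (SE 0.31, adjusted p 0.0661). Between the untreated lines LRIG1, a membrane protein that lowers receptor levels, was the 1 called, higher in NS1 cells by 1.03 (SE 0.23, adjusted p 0.0116). Over all genes 12.5% were called there. With 5-Ad-IAA in both lines 5 of 13 were higher in NS1 cells and 1 lower, where 28.2% of all genes were called, with a list median of 0.37. CBLB had 1.64 (SE 0.22, adjusted p 0.00019), LRIG1 0.89 (SE 0.23, adjusted p 0.012), EPS15, an endocytic adaptor, 0.55 (SE 0.17, adjusted p 0.0292) and SOCS5 0.54 (SE 0.14, adjusted p 0.0125). EPS15 kept its call in 2 of 6 fits with a single library left out.

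The ligands at 4q13.3 lie beside a cluster of CXCL chemokines, which attract neutrophils, and several of these were lower in NS1 cells as well. Of 11 neighbouring genes, 10 could be tested. Between the untreated lines 3 were called, all lower in NS1 cells, where 12.5% of all genes were called: CXCL5 (log2 -2.87, SE 0.81, adjusted p 0.0352), CXCL1 (-2.08, SE 0.55, adjusted p 0.0263) and CXCL6 (-1.51, SE 0.42, adjusted p 0.0323). Each held in 1 of the 6 fits with a single library left out. With 5-Ad-IAA in both lines 4 were called, all lower, where 28.2% of all genes were called: CXCL5 (-3.29, SE 0.84, adjusted p 0.0109), CXCL1 (-2.75, SE 0.57, adjusted p 0.00336), CXCL8 (-2.43, SE 0.53, adjusted p 0.00417) and CXCL6 (-1.75, SE 0.43, adjusted p 0.00834). These 4 held in all 6 fits. EREG and AREG were lower in that comparison. The genes on either side of the ligands, MTHFD2L (between them and the CXCL genes) and PARM1, were not called. With 5-Ad-IAA in NS1 cells 0 of the 10 neighbours were called by edgeR, where 6.15% of all genes were, and 0 by DESeq2. In edgeR 2 had an unadjusted p under 0.05. With the block within each line 5 were called as lower, where 25.9% of all genes were called.

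**Figure D5:**
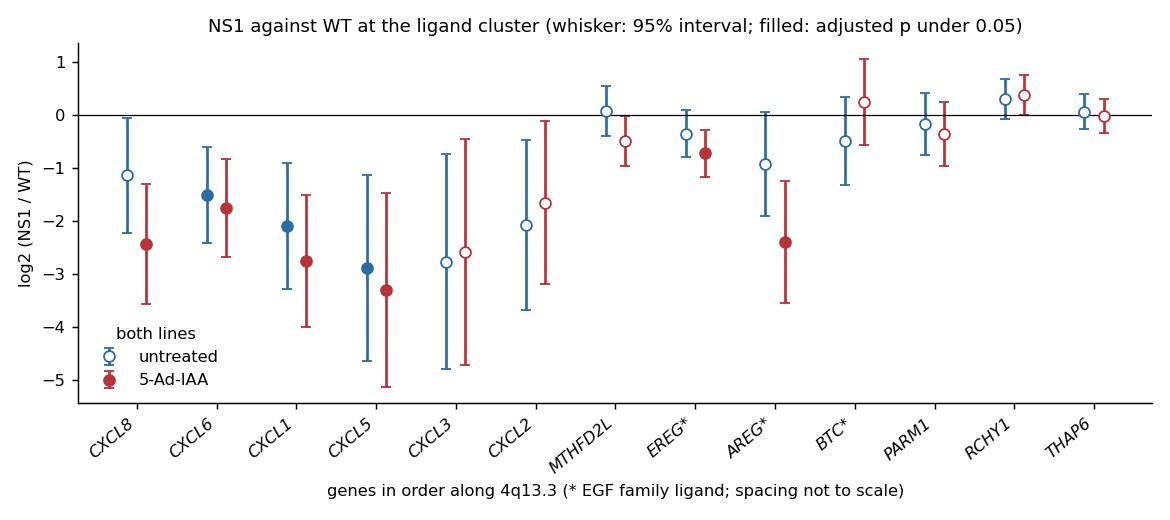
Log2 difference of NS1 to WT cells for the tested genes at 4q13.3 in their order on the chromosome (not to scale), untreated in blue and with 5-Ad-IAA in red; whiskers are 95% intervals and filled points have an adjusted p under 0.05. The CXCL genes lie at the left, and AREG and EREG are the filled ligands with 5-Ad-IAA while BTC and the genes beyond it have open points.

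For each tested ligand the genes with the most similar profile over the 12 libraries were found by Pearson correlation of log2 CPM among 16520 genes. These libraries share lines, treatments and replicate numbers, so the values are descriptions. The profile most like that of HBEGF was JUN, a subunit of AP-1 (r 0.99), followed by the growth factor FGF5 (0.98) and GLIPR1 (0.97). JUN had 98.5, 95.1, 182 and 148 CPM on average in untreated WT, treated WT, untreated NS1 and treated NS1 cells. Those most like AREG were JMJD6 (0.98), the cyclin CCND3 (0.98) and the early response gene IER5 (0.97). For TGFA they were LINC02970 (0.96), the formin DIAPH3 (0.95) and the ETS factor ETV5 (0.95), and for EREG ZCCHC8 (0.95), the BMP receptor BMPR1B (0.95) and the lipid transporter MFSD2A (0.94). NRG1 was most like the RNA-binding protein TIA1 (0.92), FOXRED2 (0.90) and ZNF552 (0.89). BTC had no profile as close, with FARP1 (0.77), LINC00630 (0.76) and DOCK6 (0.76).

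Library totals ran from 10593934 to 20266996 counts. Of 17 urothelial markers 9 had enough counts. The keratins KRT7, KRT8, KRT18 and KRT19 and the factors GATA3, PPARG and FOXA1 were present, while KRT5, TP63 and UPK3A had 0 reads. Of the 9 tested, GATA3 and ELF3 were the 2 called with 5-Ad-IAA in NS1 cells, where 6.15% of all genes were called. They rose by 1.34 (adjusted p 0.0281) and 3.14 log2 (adjusted p 0.0223). Between the lines with 5-Ad-IAA, 4 ligands and 28.2% of all genes were called. There 6 of the 9 tested urothelial markers were called as higher in NS1 cells (GATA3, ELF3, PPARG, FOXA1, KRT7 and KRT19), though KRT7 overlapped between the groups. KRT8 (0.30 log2), KRT18 (-0.28) and UPK2 (-0.02) were not called. PDGFRB was higher by 2.52 log2 (adjusted p 0.00796). Between the untreated lines KRT19 was the 1 of the 9 called (0.78, adjusted p 0.0312), beside the HBEGF difference, where 12.5% of all genes were called. The groups overlapped for KRT19. Of 5 leukocyte, 3 endothelial and 6 mesenchymal markers, 1, 1 and 2 had enough counts. PECAM1 went from 0.206 ± 0.151 to 1.93 ± 0.844 CPM and PDGFRB from 2.31 ± 1.46 to 11.8 ± 6.77 CPM with 5-Ad-IAA in NS1 cells, and both were called (adjusted p 0.0251 and 0.0374). The summed level of the mesenchymal list was 2.53 to 5.45 CPM in untreated and 8.42 to 21.8 CPM in treated NS1 libraries, and that of the endothelial list 0.0617 to 1.06 and 1.35 to 4.07 CPM. That of the leukocyte list was 0.432 to 0.945 and 1.14 to 2.01 CPM. The mesenchymal sum was mostly PDGFRB and COL1A1, with means of 11.8 and 3.82 CPM in treated NS1 cells. DCN had 0 reads in all libraries. The part of these markers in the ligand results was not tested.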

How the data were processed

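Poly(A) RNA of T24 cells was sequenced in 12 libraries, and the authors deposited 1 table of raw read counts per gene. The submitters' processing notes name STAR 2.7.3a, featureCounts 1.6.4 and hg38. Neither annotation release nor strand setting is given in the sources used here, so overlapping genes may share reads. Columns were matched to libraries by name. Symbols were found for 60261 identifiers. Positions and exon lengths came from GENCODE 29.

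Counts were fitted with edgeR 4.0.16 in R 4.3.3: filterByExpr over the 4 groups (17775 genes), TMM, and 1 quasi-likelihood fit to the 12 libraries with 4 group means. Tests were two-sided, with Benjamini-Hochberg adjustment over all genes and a threshold of 0.05. An SE is the log2 fold change divided by the square root of F. The edgeR step was tested on simulated data. Library totals of 10593934 to 20266996 counts set the precision, and 3 counts were taken as the detection floor. No pair of libraries in a group agreed within sampling noise (lowest chi-square per degree of freedom 3.03, for genes of 20 or more counts).

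The deviations of same-numbered libraries from their group means correlated between treated and untreated groups, at 0.71, 0.39 and 0.38 for NS1 pairs and 0.75, 0.38 and 0.26 for WT pairs. All exceed 0.1, so replicate numbers were taken to pair samples in the inducer comparisons, on this evidence from the data. It rests mainly on replicate 1: numbers 2 and 3 correlated with each other at 0.37 and 0.28 in NS1 and 0.37 and 0.25 in WT cells, and treated WT replicate 3 correlated more with untreated replicate 2 than with its own number. The deviations are from means of 3 libraries, so where replicate 1 stands apart, numbers 2 and 3 correlate in any combination. Their values above 0.1 therefore cannot show which of these libraries are pairs. Alternatives were other scalings and filters, DESeq2 1.42.0, replicate blocks, fewer groups and left-out libraries. The members and gene lists were chosen with earlier results of these data known. Named genes were the 7 members, other family ligands, receptors, up to 4 called genes of each further list per comparison by size of change (mean of at least 1 CPM), and the 3 genes most correlated with each member (prior count 2). Protein sequences were not used here.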

Additional observations from a re-analysis of the deposited data

Results flagged for a closer look

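With the replicate block within each line, the change with 5-Ad-IAA differed between NS1 and WT cells for 5 of the 6 tested ligands and 3 tested receptors together. This was by the test of that difference in edgeR, which called 14% of all genes. The interaction was -0.588 log2 for HBEGF (adjusted p 0.00505), -0.453 for TGFA (0.0102) and -1.387 for AREG (0.0291), and it was 0.361 for ERBB2 (0.0245) and 2.411 for ERBB3 (0.00444). In NS1 cells HBEGF, TGFA and AREG were lower in 3 of 3 pairs and ERBB2 and ERBB3 higher in 3 of 3. The treated and untreated NS1 groups did not overlap for these 5 genes, so any pairing would give the same counts. In WT cells HBEGF was lower in 1, TGFA, AREG and ERBB2 in 2 and ERBB3 in 3 of 3 pairs. With this block and without replicate 1 none of the 5 was called, with adjusted p from 0.0523 for ERBB3 to 0.302 for TGFA. Without pairing edgeR also called none of the 5, with adjusted p from 0.146 for ERBB3 to 0.49 for HBEGF. With 1 block per replicate number none was called either, with adjusted p from 0.056 for ERBB3 to 0.151 for ERBB2.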

How the results depend on the processing

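Each group has 3 libraries and replicate 1 stands apart, so calls that need it rest on few samples. AREG and BTC have under 50 reads per library, and requiring at least 10 counts in every library removed both and ERBB3, so that setting gave them no value. The cause of the changes listed here was not tested unless the setting has fewer samples or genes.

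For the inducer effect in NS1 cells, 0 ligands were called by edgeR without pairing and by DESeq2, 2 with no filter on low counts (TGFA and AREG), 1 with only the 2 groups compared (TGFA), 3 with a replicate block and 4 with the block within each line. Leaving out libraries gave 0 to 1 ligands without the block (AREG without replicate 1), and with the block 1 without replicate 1, 4 without replicate 2 and 4 without replicate 3. For NS1 against WT cells without inducer, 1 ligand was called, and 2 with no filter on low counts, with 0 to 3 when libraries were left out. With the inducer 4 were called, and 0 to 4 when libraries were left out. For the interaction, 0 were called, 3 with the block within each line, and with that block 0 without replicate 1 and 3 without replicate 2 (EREG in place of AREG) or 3. Over all genes the interaction gave 4 calls in edgeR and 377 in DESeq2.

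Replicate numbers did not pair the lines, since the correlation of same-numbered libraries was as low as 0.07 untreated and 0.01 treated. Each untreated library nevertheless correlated best with its own number in the other line, as a hint from the data, which the treated replicate 3 did not. The block took the calls over all genes from 2222 to 3908 untreated and from 5007 to 6670 with the inducer. With a replicate block the untreated lines gave 2 ligand calls, adding AREG (-0.95, adjusted p 0.0119), and ERBB2 was called (-0.31, adjusted p 0.03). With the inducer the block changed no ligand call. The leave-outs combined with the block were chosen after seeing the data.

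Values that changed sign had no call where their sign differed. With library totals in place of TMM, NRG1 had -0.0145 and EGFR -0.00803 for the inducer effect in NS1 cells, EGFR -0.00228 between untreated lines, ERBB2 -0.0289 between treated lines, and NRG1 -0.0378 for the interaction. For the inducer effect in WT cells ERBB2 had 0.00241 with RLE size factors and 0.00162 with DESeq2. With the replicate block NRG1 had -0.00575 in NS1 and -0.0068 in WT cells. With the block within each line and replicate 1 left out, NRG1 had -0.239 in NS1 cells, -0.215 in WT cells and -0.0237 for the interaction, and in WT cells BTC had 0.469 and ERBB2 0.0203. Without replicate 2, EGFR had -0.0161 in NS1 cells, 0.13 in WT cells and -0.146 for the interaction, where it was called without replicate 3 (-0.36 in WT cells and 0.44 for the interaction), and in WT cells TGFA had 0.0259 and ERBB2 0.0164. Without replicate 3, TGFA had 0.00156, EREG -0.062 and NRG2 -0.0443 in WT cells. Without 1 library or replicate number, values for the inducer effect in NS1 cells ran from -0.315 to 0.243 for NRG1 and -0.0289 to 0.159 for EGFR. The ranges for that in WT cells were -0.0848 to 0.38 for HBEGF, -0.148 to 0.133 for TGFA, -0.434 to 0.247 for AREG, -0.137 to 0.326 for EREG, -0.555 to 0.479 for BTC, -0.396 to 0.209 for NRG1, -0.356 to 0.0933 for EGFR, -0.0617 to 0.061 for ERBB2 and -0.0817 to 0.219 for NRG2. The ranges between the untreated lines were -0.197 to 0.11 for TGFA, -0.747 to 0.106 for BTC and -0.19 to 0.165 for EGFR. The ranges between the treated lines were -0.651 to 0.131 for NRG1, -0.00111 to 0.143 for ERBB2 and -0.234 to 0.0598 for NRG2. The ranges for the interaction were -0.344 to 0.437 for NRG1 and -0.111 to 0.437 for EGFR.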
